A study of Mus musculus with 3 samples.

Results

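The set was named with 10 genes, Saa3, Lcn2, Slpi, Wfdc2, Hp, C3, Cfb, Pglyrp1, Lyz2 and Ltf, that encode secreted proteins of innate defence and of the acute-phase response. They were chosen from the contrast reported here, because Saa3 and Wfdc2 were much lower in both MAFK clones, so the differences of the members from mock are a description and carry no test. Of the 10 named members, 9 were matched to a probe set that names only that gene, out of 19935 genes measured, and C3 was not matched. Each of the 9 had 1 probe set.

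The study profiled RNA of NMuMG cells, a line of mouse mammary gland epithelium, on 3 Affymetrix arrays, with all cells grown in puromycin. The mock array held cells with the empty pCAGIP vector (mock, n = 1), and the other arrays held clone 4 and clone 10, stable lines in which the vector carries FLAG-tagged MafK (MAFK, n = 2). MAFK is a small MAF protein, a leucine zipper factor that has no transactivation domain of its own. Clone 4 and clone 10 are each a single clone, while the mock cells are not labelled as clonal, so an effect of cloning and an effect of the transgene cannot be told apart. The comparison asked which genes differ in cells that stably express MAFK. With 1 mock array and 2 clones the number of arrays limits the precision, and the spread of mock is unknown. Nothing in the labels says whether the clones were cultured or extracted separately, so the p-values below measure only the spread between these 2 arrays. Values are log2 RMA expression, on which a difference of 1 is a 2-fold change. The median over all probe sets and arrays was 6.91.

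Epithelia that line ducts and mucosae secrete proteins that limit microbes and the proteases released during inflammation. Serum amyloid A and haptoglobin are acute-phase proteins, made mostly by the liver but also by epithelia under inflammatory cytokines. Lipocalin 2 and lactoferrin withhold iron from bacteria, the whey acidic protein (WAP) domain proteins include inhibitors of serine proteases, complement factors mark microbes for uptake, and lysozyme and peptidoglycan recognition proteins act on the bacterial wall. Transcription of many of these genes is known to be driven by C/EBP, STAT3 and NF-kB factors.

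The promoters of 4 members are shown, Saa3 and Wfdc2, which lay furthest below mock in the clones, and Lcn2 and Slpi, which lay furthest above it. They are RefSeq sequences of GRCm38.p6, from 250 bases before to 50 bases after the gene's start, read along the gene's strand. Saa3 lies at chr7:46715627-46715926 (minus strand), Wfdc2 at chr2:164562465-164562764 (plus strand), Lcn2 at chr2:32387690-32387989 (minus strand) and Slpi at chr2:164356458-164356757 (minus strand). Capitals mark matches on either strand to the C/EBP pattern TTNNGNAA or to TGCTGA, the core that MAF proteins recognise, which do not overlap in these windows.
Saa3: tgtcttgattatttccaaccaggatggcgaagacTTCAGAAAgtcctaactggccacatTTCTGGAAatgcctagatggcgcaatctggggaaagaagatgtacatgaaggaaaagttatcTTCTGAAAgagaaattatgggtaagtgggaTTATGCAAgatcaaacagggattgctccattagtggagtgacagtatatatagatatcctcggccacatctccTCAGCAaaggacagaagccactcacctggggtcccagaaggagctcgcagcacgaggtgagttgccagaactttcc
Wfdc2: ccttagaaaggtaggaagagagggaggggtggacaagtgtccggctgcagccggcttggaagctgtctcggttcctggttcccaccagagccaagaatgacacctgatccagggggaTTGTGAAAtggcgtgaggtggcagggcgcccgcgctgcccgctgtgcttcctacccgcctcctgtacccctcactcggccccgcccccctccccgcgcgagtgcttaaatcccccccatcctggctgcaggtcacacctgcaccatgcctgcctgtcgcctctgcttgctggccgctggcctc
Lcn2: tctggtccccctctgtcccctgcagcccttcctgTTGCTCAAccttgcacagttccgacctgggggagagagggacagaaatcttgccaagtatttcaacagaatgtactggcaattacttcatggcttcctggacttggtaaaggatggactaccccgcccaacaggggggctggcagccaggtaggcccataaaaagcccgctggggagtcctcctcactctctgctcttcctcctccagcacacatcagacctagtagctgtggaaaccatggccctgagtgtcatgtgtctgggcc
Slpi: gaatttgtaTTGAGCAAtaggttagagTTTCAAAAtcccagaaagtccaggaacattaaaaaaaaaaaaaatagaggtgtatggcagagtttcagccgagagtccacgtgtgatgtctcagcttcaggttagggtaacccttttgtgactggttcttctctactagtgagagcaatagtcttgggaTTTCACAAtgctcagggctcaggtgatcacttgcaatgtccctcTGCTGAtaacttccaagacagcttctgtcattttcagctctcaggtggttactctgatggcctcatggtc

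In the Saa3 window 4 matches to the C/EBP pattern began at positions -216, -191, -129 and -99 from the start, and a match to TGCTGA on the opposite strand began at -26. The Slpi window held 3 C/EBP matches and a TGCTGA match at -20. The Wfdc2 and Lcn2 windows each held 1 C/EBP match, at -133 and -216, and no TGCTGA. Among the 7 members with both values and a promoter sequence, 6 held the C/EBP pattern and 3 held TGCTGA. The same patterns occurred in 40.8% and 19.3% of 27025 promoters of the same length. The AP-1 pattern TGANTCA (7.91% of promoters) occurred in none of the 7, the antioxidant response core TGACNNNGC (12.4%) in Lyz2, and the NF-kB consensus (4.36%) in Pglyrp1. Matches were found in promoters of members that were lower and of members that were higher in the clones. They describe the letters of these windows and show no binding.

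Saa3, which encodes serum amyloid A3, the form of this acute-phase protein made outside the liver, was low in both clones. It read 9.26 in mock, against 5.62 in clone 4 and 5.56 in clone 10. The clones lay close together and far below mock, and the mean of the clones, 5.59 ± 0.04 (SD, n = 2), was 12.8-fold lower than mock. In mock 79.8% of all probe sets had a lower value than Saa3, against 20.8% in clone 4 and 19.7% in clone 10. Because RMA compresses differences at low values, such a fold describes these arrays. Fewer cells with the transcript and less transcript per cell cannot be told apart in such RNA from whole cultures.

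Haptoglobin (Hp), which binds free haemoglobin, was lower by less and unevenly. It read 7.56 in mock, against 7.12 in clone 4 and 6.54 in clone 10. Both clones were below mock, by 1.36-fold in clone 4 and 2.03-fold in clone 10, and the clones differed from each other by -0.58 on the log2 scale, more than clone 4 differed from mock. Hp lies on chromosome 8, whose other 960 genes had a mean difference of 0.12 in each clone, in the opposite direction. Their median difference was 0.05 in each clone, and the mean over all genes was 0.01 in each.

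The 2 members with WAP domains, which lie close together on chromosome 2, differed from mock in opposite directions. Wfdc2, which encodes the secreted protein HE4, read 10.02 in mock, against 6.05 in clone 4 and 6.12 in clone 10. Its mean in the clones was 6.08 ± 0.05 (SD, n = 2), which is 15.3-fold lower than mock. The clone values of Wfdc2 and Saa3 lay in the range of the members with low values on every array (Pglyrp1, Lyz2 and Ltf), so both folds depend on values that were not shown to be above background, and no order between them is drawn. Slpi, which encodes the secretory leukocyte protease inhibitor of neutrophil elastase and cathepsin G, read 9.34 in mock, against 10.28 in clone 4 and 10.25 in clone 10. Both clones were above mock by nearly the same amount, and their mean of 10.26 ± 0.02 (SD, n = 2) was 1.90-fold higher, short of the 2-fold limit used for counts.

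Lcn2, which encodes lipocalin 2, a carrier that binds bacterial siderophores, was higher in both clones but by unequal amounts. It read 10.16 in mock, against 12.19 in clone 4 and 10.90 in clone 10. The difference from mock was 4.08-fold in clone 4 and 1.68-fold in clone 10, so that any fold over both clones rests largely on clone 4. Clone 10 was 2.43-fold below clone 4. Among all 19935 genes 43 (0.216%) had clones at least this far apart, and 0.441% had clones at least 2-fold apart. Lcn2 was the 1 member among these.

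Cfb, which encodes factor B, the protease component of the alternative complement pathway, was lower in both clones. It read 8.19 in mock, against 6.77 in clone 4 and 6.57 in clone 10. The clones were closer to each other than either was to mock, and their mean of 6.67 ± 0.14 (SD, n = 2) was 2.86-fold lower. Both clones were below the median of all probe sets, and mock was above it.

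The remaining members showed low values on every array. Pglyrp1, a peptidoglycan recognition protein of neutrophil granules, read 6.07 in mock and 6.21 in each clone. Lyz2, the lysozyme of macrophages, read 5.47 in mock and clone 4 and 5.72 in clone 10. Ltf, the gene of lactoferrin, which is secreted in milk and stored in neutrophil granules, read 5.70 in mock, against 5.70 in clone 4 and 5.72 in clone 10. These 3 members stayed below the median of all probe sets on each array, and no difference of theirs from mock exceeded 0.25 on the log2 scale. No detection calls were used, so whether they are expressed at all was not tested.

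**Figure D1:**
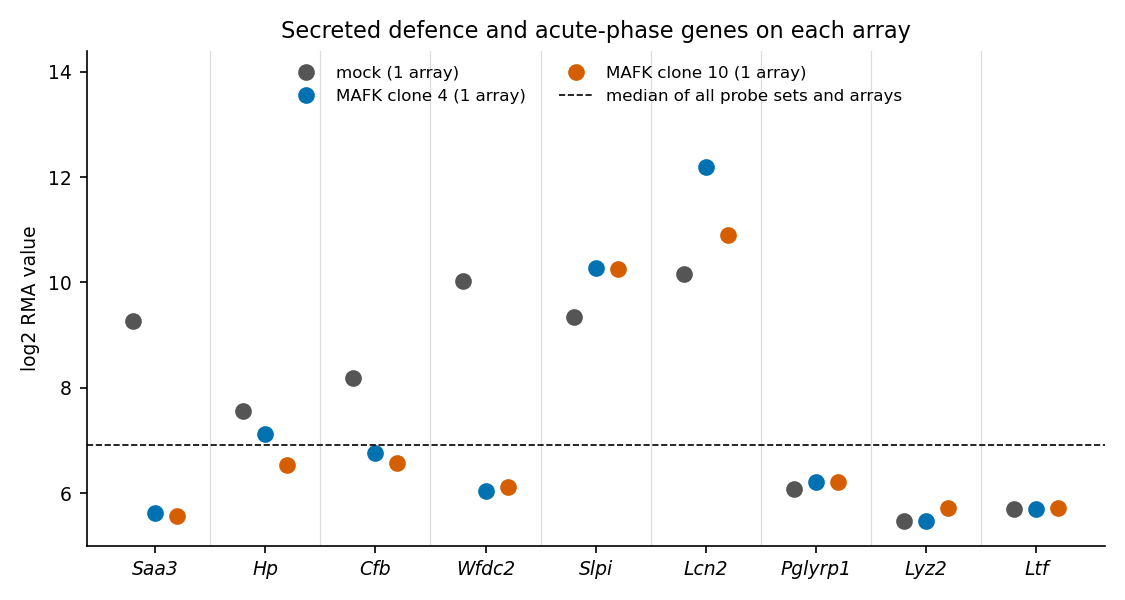
The log2 RMA value of each matched member is plotted for mock, clone 4 and clone 10, 1 point per array, with a dashed line at the median of all probe sets (6.91). Saa3, Hp, Cfb and Wfdc2 are lower in both clones, Slpi and Lcn2 are higher, and Pglyrp1, Lyz2 and Ltf lie below the line throughout.

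Across the set, 3 of 9 members (Saa3, Wfdc2 and Cfb) were at least 2-fold lower than mock in both clones, where 1.81% of all genes were. No member was at least 2-fold higher in both clones, where 1.19% of all genes were, although Lcn2 passed that limit in clone 4. Since this contrast chose the set, nothing is read from these shares. By sign alone, 4 members were below mock in both clones and 3 above, and Lyz2 and Ltf equalled mock in clone 4. Over all 19935 genes 3560 were below mock in both clones and 6711 above. The member counts and medians include Pglyrp1, Lyz2 and Ltf, which had low values on every array. The median difference of the members was 0 in clone 4 and 0.02 in clone 10, beside 0 in both clones over all genes. The set therefore had no common direction. Both differences share the single mock array, so a high or low mock value would move the clones together.

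**Figure D2:**
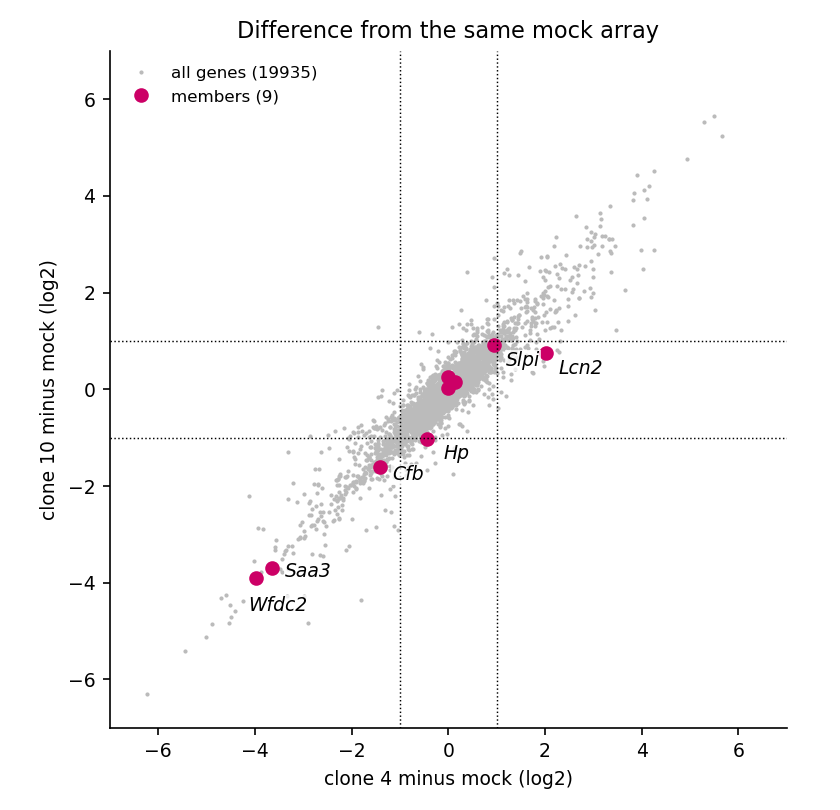
The difference of clone 10 from mock is plotted against that of clone 4 on the log2 scale, for all 19935 genes (grey) and the 9 members (pink), with dotted lines at 2-fold. Wfdc2 and Saa3 lie near -4 on both axes, while Lcn2 lies to the right of the other members, at 2.03 in clone 4 and 0.75 in clone 10.

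The genes beside the members were examined for differences of the same kind. The order of protein-coding genes was taken from GRCm38.p6, with 3 neighbours on each side of Saa3, Cfb, Lcn2 and Hp and of the stretch from Slpi to Wfdc2. Of 37 measured neighbours in these 5 places, 0 were at least 2-fold from mock in both clones. Over all genes 1.81% were at least 2-fold lower and 1.19% higher by this limit, so a count of 0 among 37 is near the background. The members Slpi, Hp and Lcn2 did not reach it either. The neighbours' differences ran from -0.61 to 0.65 on the log2 scale. Many neighbours, Saa1, Saa2 and C2 among them, stayed below the median of all probe sets on every array, where a fall could hardly show. Whether the differences are confined to the members was not tested. The 7 genes between Slpi and Wfdc2 include Sdc4, which encodes the proteoglycan syndecan 4, and Pigt, a subunit of the enzyme that attaches lipid anchors. Sdc4 read 10.54 in mock, against 10.60 in clone 4 and 10.28 in clone 10, and Pigt read 11.16, 11.32 and 11.22. Next to Saa3, the liver forms Saa1 (4.70 in mock, against 4.78 in clone 4 and 4.77 in clone 10) and Saa2 (5.29 on all 3 arrays) stayed at low values. C2, the paralogue of Cfb in the classical complement pathway and its direct neighbour, read 6.06 in mock and 6.19 in each clone.

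**Figure D3:**
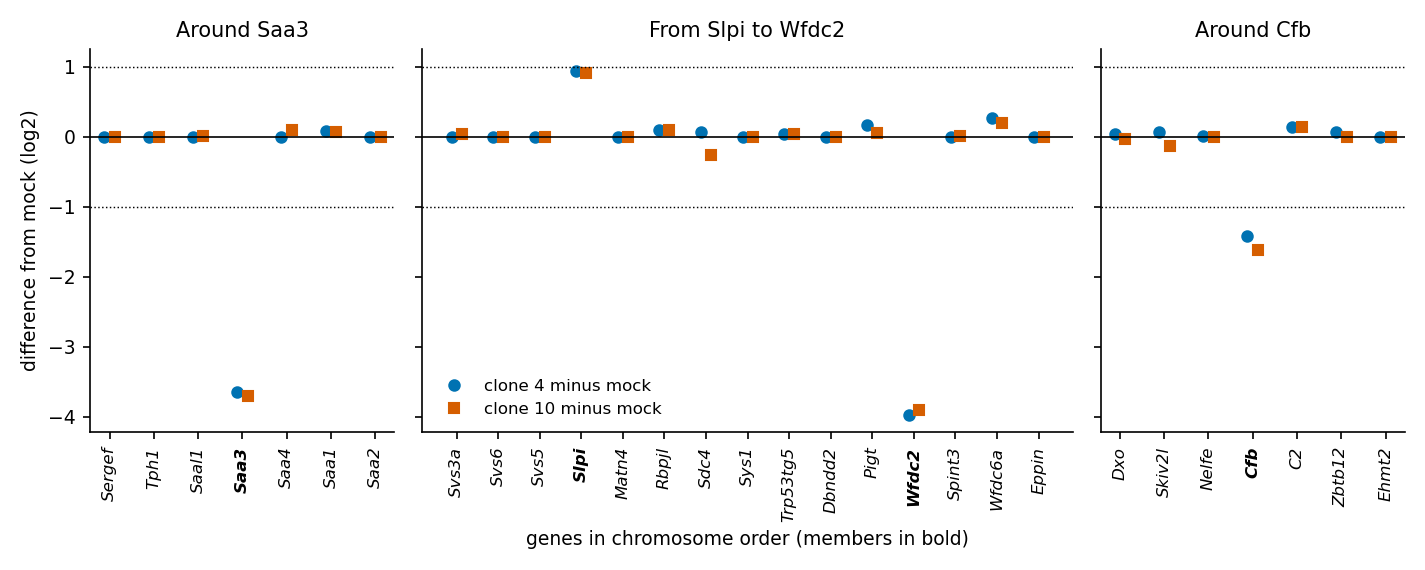
The difference from mock on the log2 scale is plotted for genes in chromosome order around Saa3, from Slpi to Wfdc2 and around Cfb, with circles for clone 4 and squares for clone 10 and dotted lines at 2-fold. The members in bold leave the zero line while their neighbours lie at most 0.26 from it. Many of these neighbours have low values on every array, where a fall could hardly show.

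Other genes of the same roles were examined in 6 lists with 175 distinct measured genes, none of them a member. A gene is said to have risen or fallen where both clones were at least 2-fold from mock in that direction and limma gave an adjusted p under 0.05 over all 19935 genes. By this rule 5 of the 175 fell (2.86%, against 0.762% of all genes) and 2 rose (1.14%, against 0.401%). At least 2-fold from mock in both clones were 10 that were lower (5.71%, against 1.81%) and 5 that were higher (2.86%, against 1.19%). The lists were drawn up with earlier results of these arrays known, and no enrichment was tested.

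Of the acute-phase genes apart from the members, 3 were at least 2-fold below mock in both clones, Hpx, Orm1 and Mt2. Over all genes 1.81% were below by this limit. Of 23 measured genes of the acute-phase list, 1 fell and none rose by limma, beside 0.762% and 0.401% of all genes. At an unadjusted limma p under 0.05, 4 were lower and 1 higher, beside 8.26% and 9.20% of all genes. The gene that fell was Hpx, the gene of the heme-binding protein hemopexin, which read 9.44 in mock, against 6.81 in clone 4 and 7.07 in clone 10. The clones differed from mock by -2.51 ± 0.15 (SE), with a limma adjusted p of 0.0472. Hpx did not pass after a repeated quantile normalization (limma adjusted p = 0.0664) or with all probe sets of a gene averaged in the table (limma adjusted p = 0.0570). Orm1, which encodes the plasma carrier orosomucoid 1, read 9.80, 7.81 and 7.11 in mock, clone 4 and clone 10, a 5.06-fold lower mean that did not pass (limma adjusted p = 0.136). The metallothionein gene Mt2 read 12.98, 10.21 and 11.02 in the same order and did not pass either (limma adjusted p = 0.157). The copper carrier gene Cp, for ceruloplasmin, read 12.47 in mock, against 11.74 in clone 4 and 11.75 in clone 10 (limma adjusted p = 0.0803). Cp was among the 20 genes of the list that were not 2-fold from mock in both clones. Of the 23 genes 5 were below mock in both clones and 6 above, and 9 were equal on all 3 arrays. Over all 19935 genes 3560 were below and 6711 above, and 34.3% were equal on all 3 arrays. The list's median difference was 0 in both clones, as it was over all genes. Of the 23 genes 7 reached the median of all probe sets on any array, Hpx, Orm1, Mt2 and Cp among them. The median difference of 0 thus describes mostly genes with low values.

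Most genes of the wider WAP family had low values on every array. Of 21 measured genes of this list, which also held the Kunitz-type inhibitors Spint1 and Spint2, none rose or fell by limma, and at an unadjusted p under 0.05 there was 1 lower and 1 higher. Over all genes 8.26% were lower and 9.20% higher at that unadjusted p. By limma 0.762% of all genes fell and 0.401% rose, so none among 21 is near the background. Wfdc18, a WAP-domain gene of the mammary gland, was 2.09-fold higher, at 6.56 in mock, against 7.67 in clone 4 and 7.59 in clone 10 (limma adjusted p = 0.0643). It was the 1 gene of the list at least 2-fold from mock in both clones. The list's medians were 0.02 in clone 4 and 0.03 in clone 10, and 3 of its genes reached the median of all probe sets on any array. Of these 3, Spint2 read 10.37 in mock, against 9.84 in clone 4 and 9.76 in clone 10 (limma adjusted p = 0.121).

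Among 36 measured complement genes 1 fell and none rose by limma, beside 0.762% and 0.401% of all genes. At an unadjusted limma p under 0.05, 4 were lower and 2 higher, beside 8.26% and 9.20% of all genes. C1s1, which encodes the C1s protease that starts the classical pathway, fell by 1.72 ± 0.07 (SE) on the log2 scale, from 8.15 in mock to 6.44 in clone 4 and 6.42 in clone 10 (limma adjusted p = 0.0344). Masp1, a protease of the lectin pathway, was 2.30-fold higher, at 8.998, 10.14 and 10.25 in mock, clone 4 and clone 10, without passing (limma adjusted p = 0.0630). Clu, the gene of the complement inhibitor clusterin, read 10.50 in mock and clone 10 and 10.76 in clone 4. Clu was among the 34 genes that were not 2-fold from mock in both clones, and the list's median differences were 0. Of the 36 genes 7 reached the median of all probe sets on any array, so those differences describe mostly genes with low values.

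Among 37 measured antimicrobial and mucosal genes 2 fell and none rose by limma, beside 0.762% and 0.401% of all genes. At an unadjusted limma p under 0.05, 2 were lower and 2 higher, beside 8.26% and 9.20% of all genes. S100a8, a subunit of the metal-binding protein calprotectin, fell from 7.97 in mock to 5.88 in clone 4 and 5.94 in clone 10, which is -2.06 ± 0.08 (SE) from mock (limma adjusted p = 0.0315). Its partner subunit S100a9 read 6.13 on all 3 arrays, below the median of all probe sets, and whether it is expressed was not tested. Pglyrp3, a peptidoglycan recognition protein of epithelia and a relative of Pglyrp1, fell from 7.43 to 6.15 in both clones (limma adjusted p = 0.0438). By sign alone, 9 of the list's genes were above mock in both clones and 3 below, where 6711 and 3560 of all 19935 genes were. Of the list's genes 16 were equal on all arrays, as were 34.3% of all genes. Of the same 37 genes 7 reached the median of all probe sets on any array.

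Receptors and iron partners of the members included the larger of the 2 rises among the list genes. Of 23 measured genes 1 rose and none fell by limma, beside 0.401% and 0.762% of all genes. At an unadjusted limma p under 0.05, 4 were lower and 2 higher, beside 8.26% and 9.20% of all genes. Scarb1, which encodes a receptor of high-density lipoprotein that also binds serum amyloid A, rose 9.27-fold, from 6.69 in mock to 10.01 in clone 4 and 9.80 in clone 10, with a limma adjusted p of 0.0344. Cd14, which presents bacterial lipopolysaccharide to TLR4, was 4.20-fold lower, at 9.69, 7.42 and 7.83 in mock, clone 4 and clone 10 (limma adjusted p = 0.0907). Lrp1, a scavenger receptor that takes up hemopexin with heme, read 10.97, 8.50 and 9.75 in the same order, with the clones 2.38-fold apart (limma adjusted p = 0.329). Slc40a1, the iron exporter ferroportin, was 3.12-fold lower without passing (limma adjusted p = 0.115). The lipocalin 2 receptor gene Slc22a17 read 6.999 in mock and 7.25 in each clone.

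Of 38 measured regulators of the acute-phase response, 1 fell and 1 rose by limma, beside 0.762% and 0.401% of all genes. At an unadjusted limma p under 0.05, 3 were lower and 7 higher, beside 8.26% and 9.20% of all genes. Hnf4a, a nuclear receptor known for driving genes of liver-secreted proteins, fell by 3.03 ± 0.09 (SE) on the log2 scale, from 10.13 in mock to 7.15 in clone 4 and 7.05 in clone 10 (limma adjusted p = 0.0293). Osmr, the receptor subunit for oncostatin M, rose 3.33-fold, from 8.39 to 10.17 in clone 4 and 10.09 in clone 10 (limma adjusted p = 0.0376). Il1rap, the accessory chain of the interleukin 1 receptor, was 4.90-fold higher but uneven, at 6.53, 9.22 and 8.42 in mock, clone 4 and clone 10 (limma adjusted p = 0.160).

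Factors known for switching on acute-phase genes, Cebpb, Cebpd, Stat3 and Nfkbiz, read no lower in either clone than in mock. Cebpb read 8.44 in mock, against 8.85 in clone 4 and 8.52 in clone 10 (limma adjusted p = 0.773), and Cebpd read 6.40, 6.72 and 7.24 (limma adjusted p = 0.471). Stat3 was 0.44 ± 0.07 (SE) above mock on the log2 scale and did not pass over all genes (limma adjusted p = 0.145). Nfkbiz, which encodes an IkB protein that acts with NF-kB on genes such as Lcn2, read 9.45 in mock and 9.61 in each clone, and the NF-kB inhibitor gene Nfkbia read 9.56, 9.58 and 9.53. Neither passed (limma adjusted p = 0.410 and 1). These are transcript levels, and the activity of the proteins was not measured.

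**Figure D4:**
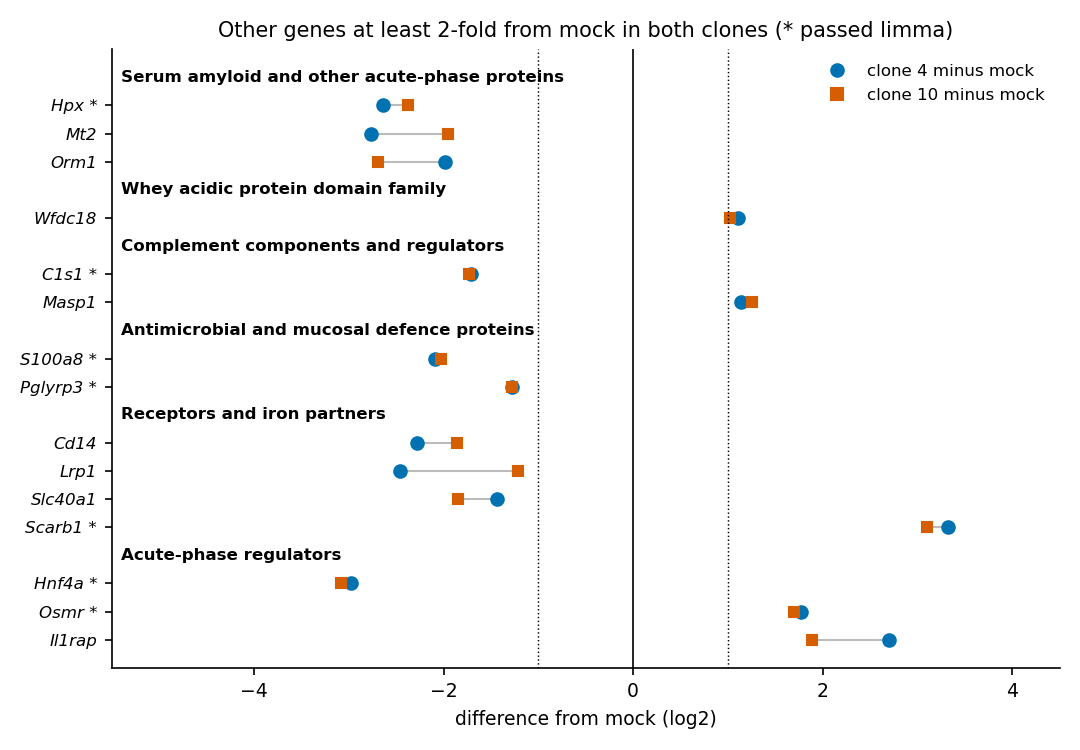
The 15 other genes at least 2-fold from mock in both clones are grouped by list, with the log2 difference from mock on the horizontal axis, a circle for clone 4 and a square for clone 10. An asterisk marks the 7 genes that also passed limma, of which Scarb1 and Osmr were higher and the other 5 lower.

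The labelled cell type and other possible cells were checked by marker lists. Of 12 epithelial markers 8 reached the median of all probe sets on at least 1 array. By limma 1 of the 12 fell, where 0.762% of all genes did. Below mock in both clones were 5 of the 12, where 3560 of all 19935 genes were. The marker that fell was E-cadherin (Cdh1), at 11.35 in mock, against 6.85 in clone 4 and 6.64 in clone 10 (limma adjusted p = 0.0282). Krt8 read at least 13.18 and Krt19 at least 11.99 on every array, and Krt18 read 11.95 in mock, against 10.92 in clone 4 and 11.08 in clone 10, a 1.93-fold lower mean that did not pass (limma adjusted p = 0.0972). Epcam (5.58) and Esrp1 (5.48) were equal on all 3 arrays, and they stayed below the median on each array, as did Ocln and Cldn7. Summed on the linear scale, the epithelial list gave 25737 in mock, 17612 in clone 4 and 18352 in clone 10. Of 12 neutrophil markers only S100a8 reached the median on any array, and Mpo (6.22) and Retnlg (5.43) were equal on all 3. In the same order the neutrophil list summed to 874, 707 and 706, and to 623, 649 and 644 without S100a8. Of 14 macrophage markers 3 reached the median, Cd68, Cd14 and Cybb, while Ptprc, the leukocyte marker CD45, read 5.81 on all 3. The macrophage list summed to 1883, 1209 and 1261, and without Cd14 to 1055, 1038 and 1033. Of 8 measured hepatocyte markers 2 reached the median, Apoa1 and Apob. Apob read 9.15, 6.33 and 6.67 in mock, clone 4 and clone 10, and Alb read 5.96, 5.85 and 5.85. The hepatocyte list summed to 1064, 582 and 603, and without Apob to 495, 501 and 501. The gene left out was the one furthest below mock on the linear scale, so leaving it out had to bring the sums closer. Without it the sums of these 3 lists in the clones were close to that in mock. Most genes left in these lists were below the median on every array, where a fall could hardly show. Without Krt8, the gene so chosen, the epithelial list summed to 12711, 8363 and 8209, still lower in the clones. None of the 6 measured genes of milk-producing cells reached the median on any array. The part of these differences in the values of the members was not tested.

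The genes outside the set whose differences lay nearest to those of Saa3 and Wfdc2 were then listed, 3 for each. Likeness was measured as the distance between differences from mock over the 3 arrays, among 10666 genes that reached the median of all probe sets. Nearest to Saa3 were Elmod1 (distance 0.09), Ifi203 (0.11) and the chemokine gene Ccl20 (0.17). Nearest to Wfdc2 were the bicarbonate cotransporter gene Slc4a4 (0.17), Elmod1 (0.29) and the adhesion molecule gene Vcam1 (0.35). With a single mock array, such distances only list genes of similar difference.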

How the data were processed

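The deposited log2 values cover 28815 probe sets on each of the 3 arrays. The authors made them with RMA (version not stated), according to the submitters' processing notes. This method corrects background, quantile normalizes and summarises probes by median polish. Genome build and filters are not given in the sources used here. The platform annotation gave 21780 probe sets 1 gene symbol, 1605 several and 5430 none, and only the first kind was used. Current symbols were taken through Entrez identifiers from a RefSeq table of GRCm38.p6 (21689 matched, 91 kept the older symbol). A gene was represented by its probe set of highest mean.

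Differences were taken per clone. Limma 3.58.1 in R 4.3.3 was fitted to all 19935 genes on the 3 arrays with 1 residual degree of freedom, taking the spread of the clones for that of mock (two-sided, Benjamini-Hochberg). Because 55.5% of genes had equal values in the clones, the prior (1.93 degrees of freedom, SD 0.0694) came from the 8873 others. Genes equal in the clones then had the smallest standard error, 0.0690, which favours passing. Members and lists were chosen with earlier results of these data known. Genes named were the members, list genes that passed or were 2-fold from mock in both clones, 5 fixed regulators and the 3 nearest genes. Cp, Clu, Spint1, Spint2, S100a9, Slc22a17, Saa1, Saa2, C2, Sdc4, Pigt and the markers were named after their values were seen. Tables and plots were made with pandas 2.3.3 and matplotlib 3.10.9. Alternatives were another normalization, centring, a low-value filter, averaged probe sets, other priors, a 1.5-fold limit and leaving out each clone.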

Additional observations from a re-analysis of the deposited data

How the results depend on the processing

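The members kept their direction where they were at least 2-fold from mock in both clones. The count of such members was 3 lower and 0 higher after a repeated quantile normalization and with each array centred on its median. Averaging probe sets could not change this count, since each matched member had 1 probe set. Leaving out low values could not change it either, since among the members this removed only Pglyrp1, Lyz2 and Ltf, none of them 2-fold from mock. At a limit of 1.5-fold there were 3 lower and 2 higher members, Slpi and Lcn2, and 723 lower and 507 higher genes in all, against 361 and 237 at 2-fold. With either clone left out (a value with no test), 3 to 4 members were lower and 0 to 1 higher, where Lcn2 was counted without clone 10 and Hp without clone 4. Over all genes these counts were 424 to 448 lower and 291 to 305 higher. Limma calls moved with the prior: 152 genes fell and 80 rose as reported, 232 and 128 with the standard eBayes prior, 233 and 147 with genes equal in the clones left out, and 292 and 147 with arrays centred, which by construction makes equal clone values differ slightly. The 7 list genes called became 6 to 10 over the alternatives. Wfdc18 and Masp1 passed limma with the standard prior (adjusted p = 0.0308 and 0.0348), and Masp1 and Cd14 with arrays centred (adjusted p = 0.0402 and 0.0455). With genes equal in the clones left out, Wfdc18, Masp1 and Cd14 passed limma (adjusted p = 0.0337, 0.0332 and 0.0477). Stat3 and Nfkbiz also had a limma adjusted p under 0.05 with the standard prior (0.0369 and 0.0322), at less than 2-fold. The same held after the repeated quantile normalization (limma adjusted p = 0.0442 and 0.0455) and with arrays centred (limma adjusted p = 0.0402 and 0.0267). No limma test is possible without either clone. No paired analysis was possible because mock and the clones share no replicate number. Low signal limits Pglyrp1, Lyz2 and Ltf, and the clone values of Saa3 and Wfdc2.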
